A study of Homo sapiens with 28 samples.

Results

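H3K27ac, the acetylated histone mark of active promoters and enhancers, was compared between the 2 peak lists that carry YAP-TFE3 in their file and peak names and the 2 that carry TFE3 alone. Members were chosen by these names, and they make up 4 of the 14 lists of the series, with 5721 and 47308 peaks in the YAP-TFE3-named lists and 31086 and 30236 in the TFE3-named lists. The sample titles give other constructs: both YAP-TFE3-named lists are titled TFE3 and both TFE3-named lists are titled YAP5SA. The replicates below are numbered by the titles. The names inside the YAP-TFE3-named lists number the same libraries 2 and 3, and those inside the TFE3-named lists number them 1 and 2. Both pairs stay whole under either naming, so every comparison between them holds as a comparison of lists, and which construct each pair stands for was not settled here. The titles, the antibody field and the study's methods give H3K27ac as the target, while the extraction text of the labels names a Flag antibody only, so calling the peaks acetylation rests on the former.

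SW872, an established human liposarcoma line, had been stably transduced with each Flag-tagged construct and grown to near confluence before the chromatin was collected. By name the comparison sets the fusion protein YAP-TFE3 against the full-length transcription factor TFE3, and by title it sets TFE3 against YAP5SA, a YAP that escapes phosphorylation by the Hippo kinases. The series was made in biological duplicate, so each pair is 2 libraries. Its other 10 lists belong to an empty vector and 4 more constructs by title, and in 14 of 14 lists the name and the title differ.

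YAP is a coactivator without a DNA-binding domain of its own. It is brought to enhancers and promoters by the TEAD factors, which read the sequence CATTCC, and the Hippo kinases LATS1 and LATS2 keep it out of the nucleus. TFE3 belongs to the MiT/TFE family of basic helix-loop-helix factors, which bind E-boxes such as CACGTG and are best known for driving lysosome genes. YAP-TFE3, found in a subset of epithelioid hemangioendothelioma, joins the N-terminus of YAP to most of TFE3.

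Promoter sequence is shown for 3 genes whose nearest bound sites are followed through the lists below, CCN2 and ANKRD1 as textbook YAP targets and YAP1 as the gene of the coactivator itself. Each line is the 250 bases before the RefSeq start, 5′ to 3′ on the gene's strand, and capitals mark CATTCC on either strand (written GGAATG on the opposite one) and CACGTG. The windows are chr6:131951373-131951622 on the minus strand, chr10:90921088-90921337 on the minus strand and chr11:102110197-102110446 on the plus strand of GRCh38.p14, which is not the build of the lists.
CCN2: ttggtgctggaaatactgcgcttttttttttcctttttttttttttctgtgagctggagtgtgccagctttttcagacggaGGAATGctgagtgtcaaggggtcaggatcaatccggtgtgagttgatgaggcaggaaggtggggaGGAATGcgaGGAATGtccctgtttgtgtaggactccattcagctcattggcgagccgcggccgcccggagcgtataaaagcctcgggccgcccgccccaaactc
ANKRD1: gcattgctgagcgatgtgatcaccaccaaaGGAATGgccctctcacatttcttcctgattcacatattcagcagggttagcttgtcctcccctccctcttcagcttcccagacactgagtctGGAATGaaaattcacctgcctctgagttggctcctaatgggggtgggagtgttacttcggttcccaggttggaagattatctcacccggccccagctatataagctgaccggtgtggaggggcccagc
YAP1: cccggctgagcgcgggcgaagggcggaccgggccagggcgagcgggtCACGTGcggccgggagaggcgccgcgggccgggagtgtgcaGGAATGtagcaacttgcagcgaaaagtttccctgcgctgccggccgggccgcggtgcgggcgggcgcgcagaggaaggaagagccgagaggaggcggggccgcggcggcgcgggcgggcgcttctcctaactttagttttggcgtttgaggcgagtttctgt
The CCN2 window held the TEAD sequence 3 times and the ANKRD1 window 2 times. The YAP1 window held 1 TEAD sequence and 1 CACGTG. Among 35116 RefSeq promoter windows of this length, 11.9% held CATTCC on either strand at least once, 0.940% at least 2 times and 0.0826% at least 3 times, and 6.34% held CACGTG. These letters are a description of the windows, and binding was not measured in these lists.

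The lists differed in length and in peak shape before any comparison of place. To set them on an equal footing, the 5721 peaks of highest −log10 p were taken from each, 5721 being the whole of the shortest list. In these equal-length lists, peaks of YAP-TFE3-named replicate 1 had a median width of 486 bp and a median fold enrichment (the summit signal over local background given by the peak caller) of 4.56. In YAP-TFE3-named replicate 2 the medians were 2590 bp and 13.2. The TFE3-named lists lay between them, with 2322 bp and 11.7 in replicate 1 and 2085 bp and 9.97 in replicate 2. The 2 YAP-TFE3-named lists were thus the narrowest and the widest of the 4. Peaks over 5 kb numbered 4 and 923 in the YAP-TFE3-named lists and 565 and 519 in the TFE3-named lists. The 5721 peaks covered 3.70 and 19.1 Mb against 16.3 and 15.1 Mb.

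Equal length did not make the lists equal in strength. The last of the 5721 peaks had a −log10 p of 4.24 in YAP-TFE3-named replicate 1, where the list ended, and of 26.9 in replicate 2, where the next peak outside had the same value. In the TFE3-named lists the last peak stood at 29.97 and 23.01, and the first outside at 29.96 and 23.01. YAP-TFE3-named replicate 1 therefore entered every comparison of equal-length lists with its weak peaks included, and the 3 other lists with their strong peaks only. Read totals were not used, so the depth behind each list is unknown.

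Whether lists of one name resembled each other more than lists of the other name was asked with the Jaccard index, that is, shared bp as a fraction of the combined bp of 2 lists. The highest index, 0.559, was between the TFE3-named lists. YAP-TFE3-named replicate 2 reached 0.505 and 0.501 with the TFE3-named lists, against 0.155 with its own partner. YAP-TFE3-named replicate 1 reached 0.178 and 0.194 with the TFE3-named lists, and 0.155 with its partner. It covered 3.70 Mb, against 19.1 Mb in its partner and 16.3 and 15.1 Mb in the TFE3-named lists. So small a list caps the index, and caps it lowest against the list of most bp. The order of these values is therefore no measure of likeness. The mean within pairs was 0.357 ± 0.286 (SD, n = 2 pairs of lists) and between pairs 0.345 ± 0.183 (SD, n = 4). The difference of 0.0128 was the highest of the 3 ways to divide 4 lists into pairs (exact one-sided permutation p = 0.333), which is the smallest p that this design can give. Ranked by fold it was 0.00540 and no longer the highest way (p = 0.667, same exact permutation test). The sign turned with 1 list left out, to −0.192 without TFE3-named replicate 1 and −0.186 without TFE3-named replicate 2, and the difference was 0.373 without YAP-TFE3-named replicate 2 and 0.0564 without YAP-TFE3-named replicate 1.

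The comparison was repeated with equal widths. When each peak was replaced by a window of 500 bp to each side of its summit, the YAP-TFE3-named lists reached 0.334 with each other. YAP-TFE3-named replicate 1 then reached 0.339 and 0.342 with the TFE3-named lists, and replicate 2 reached 0.475 and 0.480. The TFE3-named lists reached 0.538 with each other. With equal widths the 2 YAP-TFE3-named lists each had a higher index with both TFE3-named lists than with one another, by 0.339 against 0.334 at the least. Within minus between was 0.0272 (exact one-sided permutation p = 0.333).

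**Figure D1:**
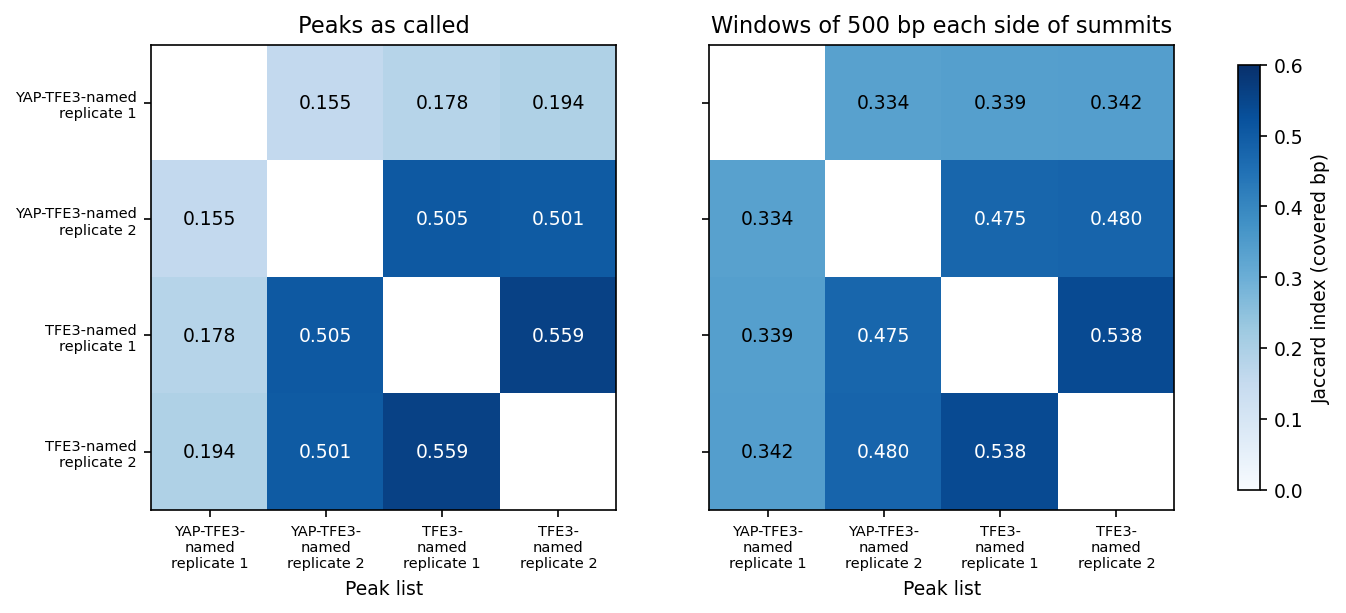
Jaccard index (shared over combined bp) between each 2 of the 4 lists at 5721 peaks per list, for peaks as called (left) and for windows around summits (right). The darkest off-diagonal cell is the TFE3-named pair in both panels, and YAP-TFE3-named replicate 1 has its lowest value with its own partner.

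Against all 13 other lists of the series, each TFE3-named list was closest to its partner. For YAP-TFE3-named replicate 2 the partner came last of 13, and the closest list was titled CAMTA1 and named for TAZ-CAMTA1, at 0.553. For YAP-TFE3-named replicate 1 the partner stood in position 6 of 13, and the closest list, at 0.214, again belonged to that group. YAP-TFE3-named replicate 1, which covered 3.70 Mb, was also the lowest of 13 for both TFE3-named lists, at 0.178 and 0.194. Its last place was thus not particular to its own partner.

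Peaks were also counted one by one. Of its 5721 peaks, YAP-TFE3-named replicate 2 had 76.8% (95% Wilson interval 75.7 to 77.9) under a peak of TFE3-named replicate 1 and 77.0% (75.9 to 78.1) under one of replicate 2. In the other direction, 76.3% (75.2 to 77.4) and 77.4% (76.3 to 78.4) of the TFE3-named peaks lay under a peak of YAP-TFE3-named replicate 2. Between the TFE3-named lists the shares were 80.1% (79.1 to 81.1) and 81.0% (79.9 to 82.0). Of the peaks of YAP-TFE3-named replicate 1, 76.1% lay in its partner and 75.02% and 75.84% in the TFE3-named lists. In the converse direction, YAP-TFE3-named replicate 1 held 60.8% of the peaks of its partner and 60.2% and 61.0% of those of the TFE3-named lists. These intervals cover counting error only, and neighbouring peaks are not independent.

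The 4 equal-length lists merged into 8313 regions. Of these, 2824 (34.0%) held a peak of every list, 1682 of 3 lists, 1475 of 2 lists and 2332 of 1 list. The pattern with all but YAP-TFE3-named replicate 1 was the next most frequent, with 1040 regions. Only 231 regions, 2.78% of all, had peaks in both YAP-TFE3-named lists and in neither TFE3-named list. The converse pattern had 412 regions, or 4.96%. Regions of 1 list of each name alone numbered 147 and 153 for YAP-TFE3-named replicate 1 and 262 and 270 for replicate 2, in the same range as those of the YAP-TFE3-named pair.

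**Figure D2:**
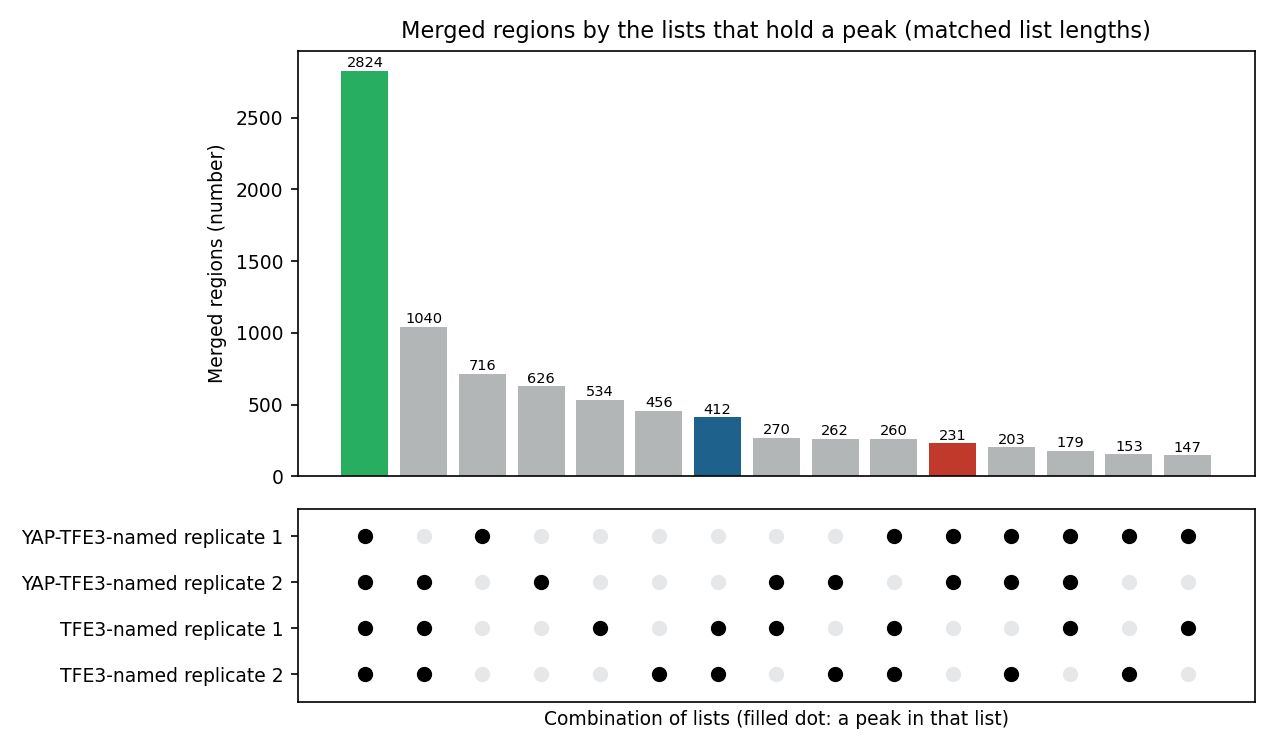
Number of merged regions (bars) for each combination of the 4 equal-length lists (filled dots). Green is the 2824 regions of all 4 lists, red the 231 regions of the YAP-TFE3-named lists alone and blue the 412 regions of the TFE3-named lists alone.

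Regions that both lists of a name held, set against the same of the other name, gave unequal shares. Of 3477 regions of both YAP-TFE3-named lists, 82.3% (95% Wilson interval 81.0 to 83.6) overlapped a region of both TFE3-named lists. Of 4561 regions of both TFE3-named lists, 62.3% (60.9 to 63.7) overlapped one of both YAP-TFE3-named lists. With either YAP-TFE3-named list left out, the first share is over single peaks of the other one. Without replicate 1 the shares were 68.9% and 85.3%, and without replicate 2 they were 69.2% and 68.0%.

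Nearly all regions in one pair alone had a lower-ranked peak in the other pair. In the 231 YAP-TFE3-named regions, both complete TFE3-named lists had a peak in 231 of 231, at median ranks of 7794 and 7946, the best at 5743 and 5726. The other 10 complete lists each had a peak in 219 to 231 of them, and 218 regions had one in every list of the series outside the 4. Their fold enrichment had a median of 4.25 in YAP-TFE3-named replicate 1, 11.8 in replicate 2, and 6.64 and 5.76 in the complete TFE3-named lists. The 412 TFE3-named regions had median folds of 10.1 and 8.92 in the TFE3-named lists. The complete YAP-TFE3-named replicate 2 had a peak in 408 of them, at a median rank of 7672.5 and a median fold of 8.20, while replicate 1, which has no peaks beyond 5721, had none.

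The best-ranked of the YAP-TFE3-named regions lay at chr2:161347777-161350994 (3218 bp, GRCh37). It stood at rank 1370 and 658 in the YAP-TFE3-named lists and at 5889 and 6355 in the TFE3-named lists, with folds of 5.99, 22.4, 5.77 and 4.40 in that order. The next, chr7:508098-514995, lay 6723 bp from a bound site nearest PDGFA, which encodes a growth factor for mesenchymal cells. Its folds were 5.08 and 19.8 in the YAP-TFE3-named lists and 6.61 and 3.80 in the TFE3-named lists, where it ranked 8845 and 13541. The widest of the 10 best, chr17:78753144-78769623, spanned 16480 bp and had folds of 6.94 and 18.7 against 8.59 and 5.51. All 10 had a peak in each of the 10 lists outside the 4, and PDGFA was the only gene of a bound site within 50 kb of any of them.

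Among TFE3-named regions the best-ranked was chr4:95128232-95129903 (1672 bp), at rank 842 and 935 with folds of 23.6 and 16.0. YAP-TFE3-named replicate 2 had it at rank 6470 with a fold of 9.58, and replicate 1 lacked it. The next, chr19:50315769-50318298, had folds of 21.7 and 11.8 against 9.38 in YAP-TFE3-named replicate 2, and chr12:110562169-110563196, 14701 bp from a site nearest the ciliary transport gene IFT81, had 18.6 and 15.9 against 10.03. In all 10 of these the complete YAP-TFE3-named replicate 2 had a peak.

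Only 4 of the 412 regions had no peak in either complete YAP-TFE3-named list. These were named after their values were seen. They were chr1:146556213-146556863, with folds of 13.8 and 9.62 in the TFE3-named lists, chr17:56736601-56736936 with 11.7 and 14.6, chr18:56806659-56807093 with 18.0 and 7.87, and chr19:40323598-40324954 with 13.5 and 11.8. Each had a peak in 3 to 8 of the other 10 lists, so none was particular to the TFE3-named pair. With all peaks of all lists, 4 regions lay in both YAP-TFE3-named lists alone, none of them among the 231, 0.00749% of the merged regions, against 1004 (1.88%) in both TFE3-named lists alone. The latter count can draw on lists of 31086 and 30236 peaks against 1 list of 5721. Among the 4, chr2:121671648-121672859 overlapped a bound site nearest GLI2, a transcription factor of Hedgehog signalling, with folds of 4.35 and 7.77 at rank 3933 and 8622. It too had a peak in 9 of the other 10 lists.

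Fold enrichment was then compared at the 2824 regions of all 4 lists, after quantile normalisation of log2 folds so that every list had the same distribution. The difference is YAP-TFE3-named minus TFE3-named, so a positive value is higher in the YAP-TFE3-named lists. limma with Benjamini-Hochberg adjustment over all 2824 regions called 0 regions higher and 0 lower at an adjusted p under 0.05 (0% in each direction). At an unadjusted p under 0.05 there were 64 higher (2.27%) and 77 lower (2.73%), 141 in all or 4.99% of the regions. The differences had a median of 0.01 and quartiles of −0.22 and 0.23. Between replicates the median difference regardless of sign was 0.32 in the YAP-TFE3-named and 0.28 in the TFE3-named pair. Ranges of the pairs did not overlap in 498 regions (17.6%) with the YAP-TFE3-named lists higher and in 472 (16.7%) with the TFE3-named lists higher.

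**Figure D3:**
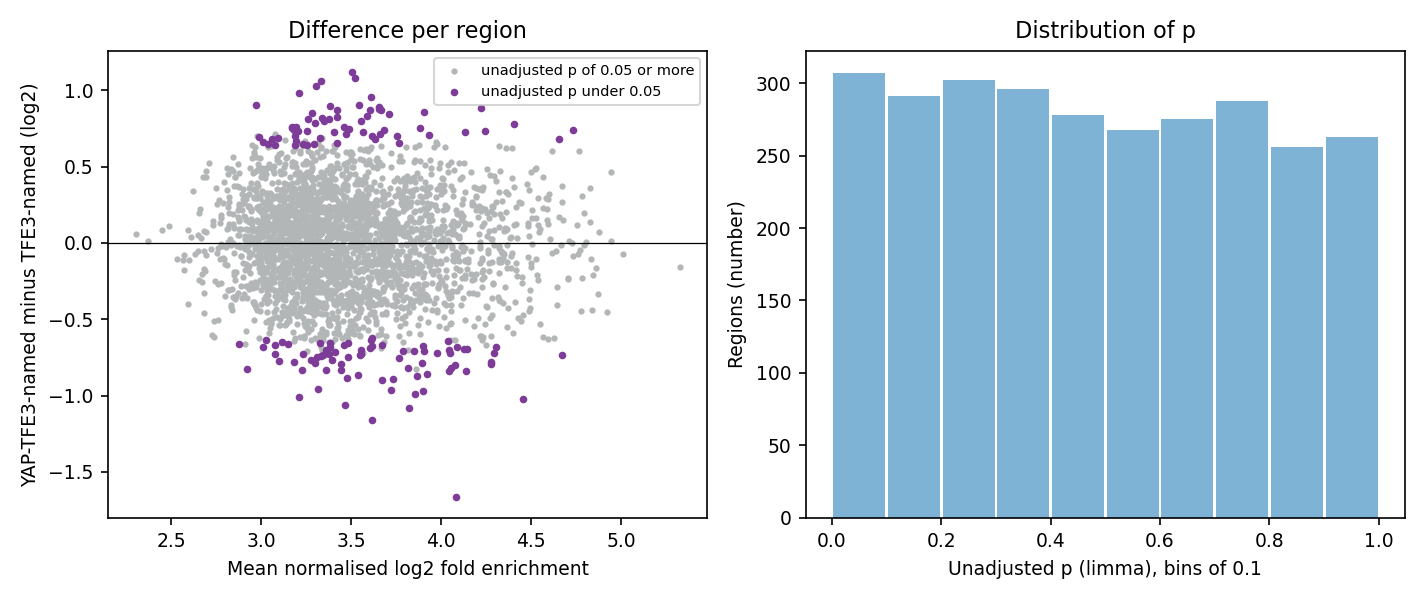
Left, difference in normalised log2 fold enrichment (YAP-TFE3-named minus TFE3-named) against its mean for 2824 regions, with the 141 regions of unadjusted p under 0.05 in purple. Right, number of regions per bin of p, which runs from 307 in the lowest bin to 263 in the highest.

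The region nearest to the threshold lay at chr1:46766481-46770957. Its folds were 4.05 and 16.2 in the YAP-TFE3-named lists and 49.9 and 28.4 in the TFE3-named lists, so the pairs did not overlap after normalisation. The log2 difference was −1.66 ± 0.31 (SE, n = 2 and 2, limma adjusted p = 0.26), and across 9 settings of the fit the adjusted p ran from 0.0193 to 0.99997. The largest difference in the other direction was chr19:41254883-41258057, with folds of 7.42 and 24.3 against 8.92 and 8.92 and a log2 difference of 1.12 ± 0.30 (SE, limma adjusted p = 0.89). Neither has a bound site within 50 kb. Across regions, Spearman's rho of the folds was 0.485 between the YAP-TFE3-named lists, 0.607 between the TFE3-named lists and 0.515 to 0.547 between lists of different names, given as a description over regions, which are not independent.

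Named genes came from positions where Flag-tagged YAP5SA, YAP-TFE3 or TFE3 bound near a gene that changed in the study's own RNA-seq, with the nearest gene as its table gives it. Only position and name were used, on the build of the lists. They form 727 sites at 564 genes, chosen by the study on cells of the same kind and therefore no independent sign of direction. Of the sites, 191 were bound by YAP-TFE3 and 535 by YAP5SA without YAP-TFE3, so hardly any rest on TFE3 alone. In the equal-length lists a peak covered 34.9% (95% Wilson interval 31.6 to 38.5) and 47.9% (44.3 to 51.5) of the sites in the YAP-TFE3-named lists. The TFE3-named lists covered 38.4% (34.9 to 42.0) and 47.2% (43.6 to 50.8). The ranges overlapped, and the mean difference of −1.38 percentage points was below the spread between lists of a pair, 7.82 (pooled SD). A peak of every list covered 176 sites, and 287 lay under no peak. Sites in both YAP-TFE3-named lists alone numbered 14 (1.93%) and in both TFE3-named lists alone 11 (1.51%).

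By region, 203 of the 2824 regions of all lists (7.19%) held a bound site, against 407 of all 8313 merged regions (4.90%). The share was 7.36% (17 of 231, 95% Wilson interval 4.65 to 11.5) in the YAP-TFE3-named regions and 1.70% (7 of 412, 0.825 to 3.47) in the TFE3-named regions. Their median widths, 3284 and 1950.5 bp, differed in the same direction, and the part of width in the shares was not tested. Chosen after their values were seen, sites of the first kind lay nearest CREB3L1, an endoplasmic reticulum stress factor, with folds of 4.13 and 10.4 against 7.80 and 5.21, and SYDE2, with 5.08 and 15.9 against 7.14 and 3.87. Sites of the second kind lay nearest RCAN1, an inhibitor of calcineurin, with folds of 14.7 and 10.5 against 5.90 in YAP-TFE3-named replicate 2, and nearest CDC42EP1, with 9.29 and 7.91 against 9.04. In each of these, too, the complete longer lists of the other name had a peak. At the 203 shared regions with a site the median log2 difference was 0.09, with 129 higher in the YAP-TFE3-named lists and 74 lower, against 0.01 with 1443 and 1381 over all 2824 regions. None of the 203 had a limma adjusted p below 0.89.

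YAP and TAZ targets were acetylated in lists of both names. Folds below are those of the strongest peak over a region of all 4 lists where the gene has one, with the limma difference, and otherwise those of the peak over the site. Of 14 such genes with a site, 9 had it under a peak in all 4 equal-length lists, against 153 of 564 (27.1%) over all genes with a site. A gene with several sites was counted in each list by its best-ranked peak over any of them. None was in one pair alone, where the share over all genes was 2.13% for the YAP-TFE3-named and 1.42% for the TFE3-named pair. At CCN1, a secreted matricellular protein, the strongest peak over the region chr1:86037782-86051925 had folds of 15.2 and 30.1 in the YAP-TFE3-named lists and 33.0 and 17.6 in the TFE3-named lists. Raw folds of the pairs thus overlapped, while normalised log2 values, 4.89 and 4.58 against 4.53 and 4.01, did not, and the log2 difference was 0.46 ± 0.31 (SE, limma adjusted p = 0.91). CCN2, its close relative whose promoter is printed above, had 7.85 and 13.0 against 14.6 and 16.1 in the region chr6:132269830-132277783. On the raw scale both TFE3-named values at CCN2 lay above both others. After normalisation they overlapped, and the log2 difference was −0.11 ± 0.33 (SE, limma adjusted p = 0.97).

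ANKRD1, a muscle ankyrin-repeat protein, was missed by the first 5721 peaks in 1 list. Its site ranked 706 and 6689 in the YAP-TFE3-named lists and 1450 and 837 in the TFE3-named lists, with folds of 8.09, 10.5, 19.5 and 18.6. AXL, a receptor tyrosine kinase, also had lower raw folds in the YAP-TFE3-named lists, 4.28 and 6.43 against 9.70 and 8.78. By rank its lists interleaved, at 3412 and 8991 against 5479 and 4002. In both genes the longer YAP-TFE3-named list was the one outside the first 5721, at rank 6689 and 8991. GADD45B, a stress-induced signalling protein, had overlapping raw folds of 8.28 and 17.7 against 8.47 and 12.1 and, after normalisation, a log2 difference of 0.75 ± 0.32 (SE, limma adjusted p = 0.89), the largest among the targets. The caveola protein CAV1 had 4.30 and 13.3 against 7.72 and 12.1 (log2 difference 0.09 ± 0.33). MYOF, a membrane repair protein of the ferlin family, had 8.41 and 15.7 against 11.8 and 10.1 (0.55 ± 0.31), and CRIM1 had 5.89 and 12.1 against 16.4 and 14.7 (−0.38 ± 0.30). The tumour suppressor DLC1 had 4.40 and 13.0 against 9.06 and 15.1 (−0.19 ± 0.33), and the ephrin receptor EPHA2 differed by 0.34 ± 0.31 and 0.24 ± 0.29 in its 2 regions. Raw folds of the pairs overlapped at MYOF, DLC1 and EPHA2. Normalised values did not overlap at GADD45B, MYOF and the EPHA2 region chr1:16498151-16510334, where the YAP-TFE3-named lists were higher. Nor did they at CRIM1, where these were lower. Over all 2824 regions the shares without overlap were 17.6% and 16.7% in these directions, and no target region had a limma adjusted p below 0.89. KRT80, a keratin, was outside the first 5721 peaks in YAP-TFE3-named replicate 2 only, at rank 6134. CDC42EP3, a CDC42 effector, was inside them in TFE3-named replicate 2 only, at rank 5433. Over the 10 target regions with a peak in all 4 equal-length lists, 2 of them at EPHA2, the median log2 difference was 0.28, with 7 higher and 3 lower. ANKRD1, AXL, KRT80, CDC42EP3 and NUAK2 had no such region and are left out of it. Of these, ANKRD1 and AXL had lower raw folds in both YAP-TFE3-named lists. At NUAK2, a kinase, the site ranked outside the first 5721 of all lists, at 14284 in YAP-TFE3-named replicate 2 and 17940 and 19942 in the TFE3-named lists.

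Genes of the Hippo pathway itself followed. Of 13 listed, 8 had a site, and 6 of these lay under a peak in all 4 equal-length lists, against the 27.1% of all genes with a site given above, to which the counts of the next groups also compare. AMOTL2, an angiomotin that holds YAP in the cytoplasm, had folds of 9.71 and 18.6 against 19.8 and 23.2 (log2 difference −0.12 ± 0.32). Of its 6 sites, 2 others lay under the first 5721 peaks of the TFE3-named lists alone, both under 1 peak with folds of 15.0 and 9.45, against 8.94 at rank 8039 in YAP-TFE3-named replicate 2 and no peak in replicate 1. LATS2, a kinase that inactivates YAP, had 5.18 and 13.4 against 14.2 and 13.7 (−0.26 ± 0.29), and AJUBA, a LIM protein that restrains the LATS kinases, 8.09 and 15.8 against 11.4 and 11.1 (0.50 ± 0.31). TEAD1, a DNA-binding partner of YAP, had 6.98 and 15.5 against 13.0 and 12.9 (0.18 ± 0.30). At PTPN14, a phosphatase that binds YAP, the folds were 12.3 and 18.4 against 11.1 and 19.6 (0.51 ± 0.38). At YAP1 itself, in the region chr11:101980040-101985412, they were 6.18 and 18.2 against 13.6 and 12.8 (0.20 ± 0.29). Limma adjusted p was at least 0.91 for all 6. In every one the lowest raw fold or the second lowest was that of YAP-TFE3-named replicate 1, whose folds are low throughout. The sites of WTIP and VGLL3, regulators of the same pathway, lay under none of the first 5721 peaks of any list. In the complete lists VGLL3 had no peak and WTIP had one in YAP-TFE3-named replicate 2 alone, at rank 22039.

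**Figure D4:**
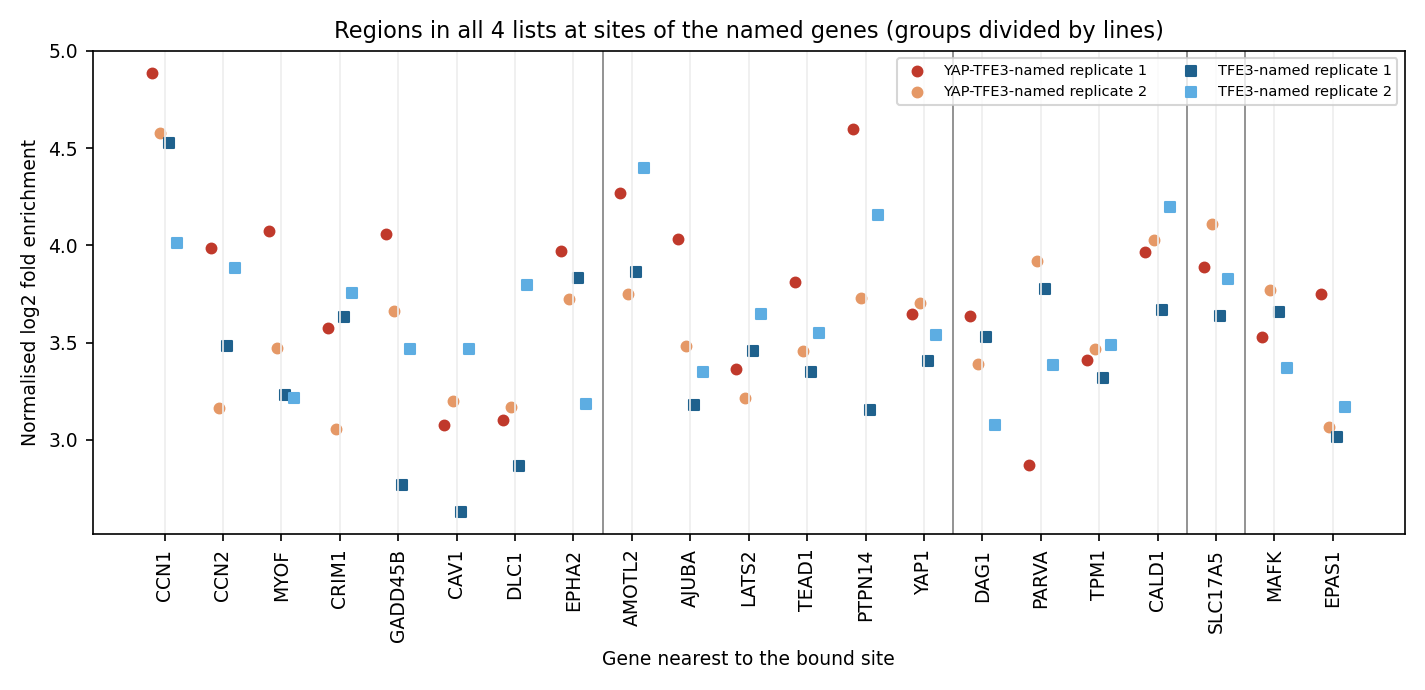
Normalised log2 fold enrichment (y axis) in the 4 lists at regions of all lists that hold a bound site of a gene shown (x axis), grouped from left as YAP and TAZ targets, Hippo pathway, matrix and adhesion, lysosome, and transcription factors. EPHA2 and TPM1 have 2 such regions, of which the one first on the chromosome is drawn. Circles (YAP-TFE3-named) and squares (TFE3-named) intermix in most genes.

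Among 11 matrix, adhesion and cytoskeleton genes, 5 had a site under a peak in every equal-length list and 4 in none. CALD1, the actin-binding caldesmon, had folds of 7.71 and 21.8 against 16.9 and 20.01 (log2 difference 0.07 ± 0.30), and TPM1, tropomyosin, differed by 0.04 and 0.02 in its 2 regions. DAG1, dystroglycan, had 6.15 and 14.9 against 15.0 and 9.18 (0.21 ± 0.30), and PARVA, parvin alpha of focal adhesions, 3.76 and 20.6 against 18.4 and 11.4 (−0.19 ± 0.35). In neither did the pairs separate. DKK3 was outside the first 5721 peaks in TFE3-named replicate 1 only, at rank 7219, and ITGBL1 inside them in TFE3-named replicate 2 only, at rank 3798. The site of the integrin ITGA1 had a peak in the complete TFE3-named replicate 1 alone, at rank 20034. The 6 regions of the group had a median of 0.05. COL12A1, ITGB2 and MATN3 had sites with no peak in any of the 4 complete lists.

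The lysosome list holds genes linked to TFE3, though nearly all of the 727 sites were bound by YAP5SA or YAP-TFE3 and not by TFE3 alone. Of its 5 genes 4 had a site, 2 of them under a peak in all equal-length lists. SLC17A5, the lysosomal sialic acid exporter, had folds of 7.31 and 22.6 against 16.4 and 15.5, a log2 difference of 0.27 ± 0.29. The limma adjusted p was 0.94. CTSB, the protease cathepsin B, ranked 2878 and 7061 in the YAP-TFE3-named lists and 8663 and 13341 in the TFE3-named lists, with folds of 4.59, 7.55, 7.16 and 4.30. The site of FNIP2, a partner of the nutrient sensor folliculin, ranked 17026 in YAP-TFE3-named replicate 2 and 16951 and 18882 in the TFE3-named lists, and was absent from replicate 1. The TFE3 gene had no site in the tables.

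Transcription factor genes were next. All 6 had a site, 2 of them under a peak in all equal-length lists. MAFK had folds of 5.74 and 18.7 against 16.8 and 11.3, and EPAS1, a hypoxia-inducible factor, 6.69 and 12.2 against 10.01 and 9.81. The other of the 2 EPAS1 sites, chr2:46324833-46325342, was within the first 5721 peaks of the YAP-TFE3-named lists alone, with folds of 5.28 and 10.8 against 7.74 and 4.87 at rank 6892 and 7797 in the TFE3-named lists. MAFF was within the first 5721 peaks of TFE3-named replicate 2 only, at rank 4594. BACH1 and FOXE1 were within the first 5721 peaks of YAP-TFE3-named replicate 2 only, at rank 4359 and 5334, against 12624 and 6940 and against 7446 and 7944 in the TFE3-named lists. Of 4 epithelial junction genes, 3 had no site under the first 5721 peaks of any list, against 215 of 564 over all genes with a site. OCLN, a tight junction protein, had its site under a peak in all 4 complete lists, at rank 5291 and 5817 in the YAP-TFE3-named and 9217 and 6092 in the TFE3-named lists. The sites of CDH1 and CXADR had peaks with folds of 6.20 and 5.23 in the complete YAP-TFE3-named replicate 2. CDH1 had 3.59 and 2.75 in the TFE3-named lists, and MARVELD3 had no peak in any of the 4.

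The longer YAP-TFE3-named list was also compared alone with both TFE3-named lists, at 30236 peaks each, a comparison of 1 library with 2 that has no test. Median widths were 1169.5 bp against 962.5 and 807 bp, and median folds 5.63 against 4.48 and 4.21. The Jaccard index of YAP-TFE3-named replicate 2 was 0.535 and 0.523 with the TFE3-named lists, against 0.559 between them. Of its peaks, 71.5% (95% Wilson interval 71.0 to 72.0) lay under a peak of TFE3-named replicate 1 and 69.1% (68.5 to 69.6) under one of replicate 2. The TFE3-named lists shared 70.3% and 74.6% of their peaks with each other and 73.5% and 76.0% with YAP-TFE3-named replicate 2. Each TFE3-named list thus had a larger share of its peaks under the list of the other name than under its own replicate. At this length the YAP-TFE3-named list also covered more of the genome, 51.0 Mb against 42.6 and 38.0 Mb.

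These 3 lists merged into 40302 regions, of which 17346 (43.0%) had a peak of each. YAP-TFE3-named replicate 2 alone held 6524 regions (16.2%). Each TFE3-named list alone held 5817 (14.4%) and 4744 (11.8%), so single-list regions were of the same order in every library, and 1910 (4.74%) were in both TFE3-named lists only. Regions of YAP-TFE3-named replicate 2 alone were narrow and weak, with a median width of 554 bp, a median fold of 4.39 and a median rank of 24351. Only 1 of them ranked within the first 5721, chr22:46942477-46944645, with a fold of 12.2 at rank 3595. It had a peak in 9 of the other 10 lists. Chosen after its values were seen, as this one was, a region at chr15:98046828-98048380, with a fold of 9.71 at rank 7659, had none in the 3 others or in those 10. YAP-TFE3-named replicate 1 had a peak in 4 of the 6524 regions (0.0613%), against 4530 of the 17346 (26.1%) shared by the 3. In 258 of the 6524 none of the other 10 lists had a peak.

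Overlap fell along the ranking whichever names were compared. In YAP-TFE3-named replicate 2, 100% of the first 1000 peaks overlapped a peak of each complete TFE3-named list. The share was 94.3% and 91.4% for peaks 10001 to 11000, and 56.8% and 51.5% for peaks 20001 to 21000. In the same bins of TFE3-named replicate 1, the shares within TFE3-named replicate 2 were 100%, 94.4% and 53.1%, and within the complete YAP-TFE3-named replicate 2, which has 47308 peaks, 100%, 98% and 71.8%. For YAP-TFE3-named replicate 1 the shares in the TFE3-named lists were 98.3% in both for the first 1000 peaks and 93.8% and 93.2% for its last 721.

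**Figure D5:**
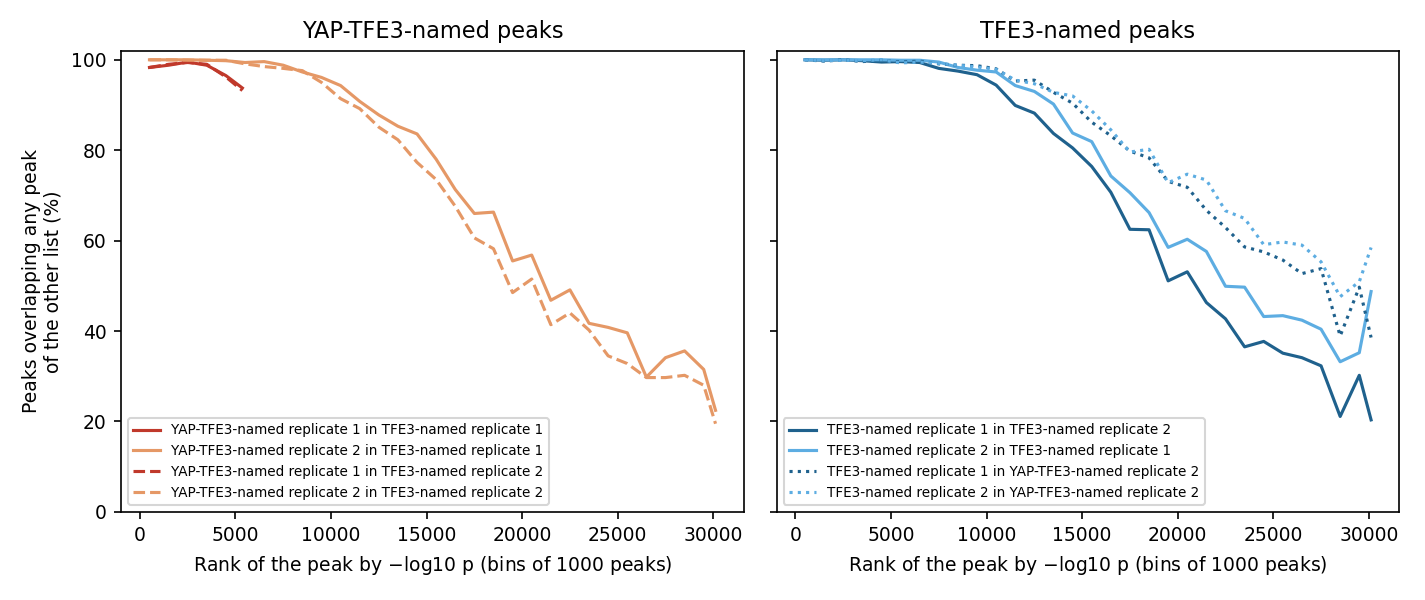
Percent of peaks (y axis) that overlap any peak of a second, complete list, by rank in bins of 1000 peaks (x axis). Left, YAP-TFE3-named peaks in the TFE3-named lists. Right, TFE3-named peaks in each other's lists (solid) and in YAP-TFE3-named replicate 2 (dotted). All curves of the longer lists stay near 100% over the first 5000 peaks and then fall, the dotted ones least.

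Bound sites were covered alike at this length. YAP-TFE3-named replicate 2 covered 81.7% (95% Wilson interval 78.7 to 84.3) of the 727 sites, and the TFE3-named lists 78.3% (75.1 to 81.1) and 79.4% (76.3 to 82.2). Of the 191 sites bound by YAP-TFE3 the shares were 80.1% against 75.9% and 75.9%. At 5721 peaks the lists of the 10 other libraries covered 44.4% to 60.8% of all sites, and the highest shares were those of the 2 lists named for YAP5SA and titled YAP-TFE3.

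The first 5721 peaks were spread over the chromosomes in nearly the same way. The pairs did not overlap on 12 of 23 chromosomes, with the YAP-TFE3-named share higher on 7 (30.4%) and lower on 5 (21.7%). All differences of the means were below 1 percentage point, the widest without overlap being chromosome 8, with 4.23% and 4.32% against 3.86% and 3.69%. Chromosome 17, with 5.75% and 5.98% against 5.61% and 5.16%, and chromosome X, with 1.80% and 1.99% against 2.62% and 2.13%, came next with differences of 0.48 and −0.48 percentage points. Of 1323 merged X regions, 1 had a peak in replicate 2 of both pairs and in none of the other 12 lists, chrX:48887669-48887999, with a fold of 5.23 in the YAP-TFE3-named and 3.99 in the TFE3-named list. It was singled out after its values were seen, no annotation of GRCh37 was used to place it, and its bearing on the naming was not tested.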

How the data were processed

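H3K27ac ChIP-seq peak lists of SW872 cells were used, 2 per pair, with groups from the titles and both namings kept. Per the study's methods the authors aligned reads to GRCh37 (BWA-MEM), dropped greylisted regions as well as reads that map to several places, and used MACS2 for the peaks, and the submitters' processing notes also name bcl2fastq. The deposited fold enrichment is a ratio over local background at the summit, and the deposited −log10 p and −log10 q are the peak caller's own. The methods speak of pooled replicates, yet the lists are per library and stop at a stricter q than the methods state (lowest −log10 q 1.30 to 1.33 over the lists), and the input libraries were not analysed here.

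The members, gene lists and comparisons were chosen with earlier results of these data known. The 5721 peaks of highest −log10 p per list were merged at an overlap of at least 1 bp. Shares carry 95% Wilson intervals. Log2 folds of regions of all 4 lists were quantile normalised and tested with limma 3.58.1 in R 4.3.3 (two-sided, Benjamini-Hochberg, threshold 0.05). Python 3.11.15, pandas 2.3.3 and SciPy 1.17.1 did the rest. The rule for names took all genes of 6 lists with a site, the 10 regions per pair alone whose weaker list ranked best, and regions past the limma threshold, of which there were 0. Some of these genes are counted but not reported here by name, and 3 of the 10 regions per pair are described. Alternatives were ranking by fold, 2000 or all peaks, summit windows, stitching, main chromosomes, a 50% overlap, other scalings, a replicate block and leaving out each list. The code was tested on simulated data: of 200 of 2824 regions changed by 1 on the log2 scale, limma called 65.5%, of those changed by 0.5 it called 4%. At a change of 1 it also called 7 regions that had not been changed. Every simulated region and list had the same spread (SD 0.267), which the data need not have, so the shares for the real lists may be lower.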

Additional observations from a re-analysis of the deposited data

How the results depend on the processing

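Replicates are named here by construct name and title number. Of 112 recomputed values, 68 were classed as the same, 42 as moved and 2 as reversed. Counts were the same within 1.5 times, and the overlap difference whenever its sign held, which gave 8 of the 68. Other values were the same if they moved by less than the SD between lists. For the percent of the longer list, the reach of its Wilson interval to either side stood in for that SD. Within minus between overlap was positive under all 6 alternatives that kept the 4 lists. Leaving out a list gave −0.192 to 0.373: it was −0.192 without TFE3-named replicate 1, −0.186 without TFE3-named replicate 2 and 0.373 without YAP-TFE3-named replicate 2. Ranked by fold it was 0.00540 (exact one-sided permutation p = 0.667).

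Regions in the YAP-TFE3-named pair alone fell from 231 to 99 with 2000 peaks, 4 with all peaks and 0 when absence from all peaks was asked, and ran from 411 to 999 without 1 list. In the TFE3-named pair alone they were 165, 1004 and 4 in place of 412, and 672 to 1461 without 1 list, since fewer lists then had to hold a region or to lack it. The shared share of YAP-TFE3-named regions was 74.4% ranked by fold, 80.1% with 2000 peaks, 99.2% with all peaks, 79.4% with summit windows and 68.9% to 88.2% without 1 list. For TFE3-named regions it was 59.96% by fold, 24.2% with all peaks, 59.3% with windows and 53.2% to 85.3% without 1 list. The lists have unequal lengths in the setting with all peaks. The cause of the other shifts was not tested.

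Of the longer YAP-TFE3-named list, 21.6% of peaks lay in neither TFE3-named list, 23.2% by fold, 11.7% with 10000 peaks, 24.95% at a 50% overlap and 28.5% to 30.9% against 1 TFE3-named list. Its own regions fell from 6524 to 1171 with 10000 peaks. Regions of the TFE3-named lists only were 963 with 10000 peaks, 2897 with windows and 7243 to 8010 against 1 list, in place of 1910. The difference in covered sites was −19.8 percentage points with all peaks, and its sign was positive with 500 bp around the sites, ranked by fold, without either of 2 lists and at the greater length. Median width and fold of the YAP-TFE3-named pair were lower than in the TFE3-named pair by less than the SD, and higher without YAP-TFE3-named replicate 1, an alternative chosen after the data had been seen.

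limma called 1 region lower in the YAP-TFE3-named pair with median centring (chr1:46766481-46770957), and 1 other without YAP-TFE3-named replicate 1 (chr10:12083506-12086000), where the lone list is taken to vary like the other pair. The remaining fits called 0, from 0 to 1 without 1 list. With the replicate number as a block the counts were 0 and 0, and 161 regions had an unadjusted p under 0.05. Deviations of replicates with the same title number correlated at 0.0384 over 2824 regions. The numbers inside the names would match the libraries differently, and that matching was not checked. Promoter shares were not run, since no annotation of GRCh37 was used here. The depth of each library is unknown, and the short list limits every comparison of both pairs: differences of 0.5 on the log2 scale were mostly not detectable by simulation with 2 libraries a side.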
